A study of Mus musculus with 12 samples.

Results

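The mitochondrial ribosomal protein genes were read here in thioglycolate-elicited mouse peritoneal macrophages (PMφs) as the symbols that begin with Mrpl (large subunit) or Mrps (small subunit) followed by a number. Of 43278 symbols in the table, 77 matched, and 76 of these reached a normalized count of 10 in at least 3 of 12 libraries: 47 Mrpl and 29 Mrps genes. Mrpl53 was the member that did not, with 0 in 11 libraries and 1 in LPS replicate 1. The annotation used here places 695 bases of its exons inside another gene, Gm42688, whose symbol is absent from the deposited table. Why Mrpl53 had almost no counts was not tested.

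PMφs came from young adult wild-type C57BL/6J mice of both sexes, lavaged 4 days after 1 ml of 4% aged thioglycolate. The cells of several mice were pooled, divided among 4 groups and used as adherent cells after 18 h. Control cells received neither agent, oxLDL cells were loaded for 24 h with human medium oxidized low-density lipoprotein at 100 µg/ml, LPS cells received ultrapure LPS at 10 ng/ml, and oxLDL+LPS cells received both in that order; the LPS exposure time of these libraries is not given in the sources used here. Each group held 3 replicates of polyadenylated RNA, so a replicate is a pool of animals and not one animal. Because thioglycolate recruits monocyte-derived cells, the model describes mainly elicited macrophages.

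The mitochondrial ribosome (mitoribosome) translates the few mRNAs encoded by mitochondrial DNA, all of which are for subunits of the oxidative phosphorylation complexes. Its ribosomal RNAs are mitochondrial transcripts, but every one of its proteins is encoded in the nucleus, translated in the cytosol and imported. Some of these proteins have counterparts in the bacterial ribosome, and others were added in the mitochondrial lineage. The small subunit reads the mRNA, and the large subunit joins amino acids and releases the chain toward the inner membrane.

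The 76 genes lie on 17 chromosomes. RefSeq promoter windows (GRCm38.p6, 250 bases before to 50 after the first listed start) were matched for 67 of them, and both strands were searched for 5 short motifs. The ETS motif CCGGAAG was in 34.3% of the 67 windows, against 18.2% of the 9742 windows of genes tested and 9.12% of all 27025 windows. The NRF1 motif, GCGC and TGCGC with any base between them and named for a regulator of nuclear genes for mitochondria, was in 19.4%, against 10.5% and 4.78%. The YY1 motif AAGATGG was in 19.4%, against 7.39% and 6.48%. The E-box CACGTG was in 7.46% of member windows and 10.2% of windows of genes tested, and the motif CCAAT in 38.8% and 38.6%. The ETS motif ends and the YY1 motif begins with AAG, so the same letters can serve both, and a match is a description of the letters only.

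Upstream stretches of some genes that rose or fell after LPS are shown, with motif matches on either strand in capitals and annotated exons left out. They are examples, not picked by size of response alone. Mrps22 (log2 difference 0.59) is shown, although Mrpl27 (1.23) rose more. Of the stretches read but not shown, those of Mrpl23, Mrpl27 (24 bases only), Mrpl42, Mrpl49 and Mrps26 held no motif. Those of Mrpl3, Mrpl28 and Mrpl36 held CCAAT on one strand or both. Of the stretches printed below, the first 4 belong to genes that were higher after LPS and the last 2 to genes that were lower. For Mrpl30 and Mrpl32 the stretch is all that separates the gene from a neighbour that starts on the other strand.
Mrpl52 (chr14:54426809-54426908, plus strand): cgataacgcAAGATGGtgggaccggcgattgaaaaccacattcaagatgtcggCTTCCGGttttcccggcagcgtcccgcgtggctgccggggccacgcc
Mrpl30 (chr1:37890412-37890476, plus strand): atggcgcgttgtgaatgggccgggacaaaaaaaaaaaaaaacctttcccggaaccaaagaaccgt
Mrpl32 (chr13:14613166-14613239, minus strand): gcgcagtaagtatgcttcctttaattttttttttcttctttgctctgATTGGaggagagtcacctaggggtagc
Mrps22 (chr9:98601680-98601779, minus strand): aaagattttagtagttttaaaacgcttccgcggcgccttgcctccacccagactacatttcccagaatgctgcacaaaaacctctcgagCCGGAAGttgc
Mrpl41 (chr2:24975099-24975198, minus strand): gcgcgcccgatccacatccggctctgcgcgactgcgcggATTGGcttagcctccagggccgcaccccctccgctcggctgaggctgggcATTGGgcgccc
Mrpl34 (chr8:71464826-71464925, plus strand): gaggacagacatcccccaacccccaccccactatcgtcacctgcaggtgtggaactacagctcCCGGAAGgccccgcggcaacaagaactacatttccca
The Mrpl52 stretch holds a YY1 motif and, on the other strand, an ETS motif. Mrps22 and Mrpl34, which moved in opposite directions after LPS, each hold an ETS motif, and Mrpl41 holds CCAAT on its other strand at 2 places. By call after LPS, the ETS motif was in 9 of 20 windows of genes called higher (45%), 3 of 10 called lower (30%) and 11 of 37 not called (29.7%). In the same order the YY1 motif was in 30%, 30% and 10.8%, and CCAAT in 35%, 60% and 35.1%. The NRF1 motif was in 25%, 10% and 18.9%, and the E-box in 10%, 10% and 5.41%.

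In control PMφs all 76 genes were expressed. Mean normalized counts ran from 105 (Mrps28, 106, 103 and 106 in the 3 replicates) to 720 (Mrpl4, 747, 716 and 697), with a median of 315. Per kilobase of annotated exon, the highest Mrpl levels were 511 for Mrpl34, 349 for Mrpl43 and 322 for Mrpl36, and the lowest were 29.9 for Mrpl47, 32 for Mrpl32 and 43.8 for Mrpl15. For the Mrps genes the highest were 575 for Mrps21, 311 for Mrps15 and 298 for Mrps23, and the lowest 18.2 for Mrps35, 33.8 for Mrps10 and 39 for Mrps30. Some genes of low level per kilobase have long annotated exons, 8631 bases for Mrps35 and 4982 for Mrpl32. The measure divides by exon length, so long annotated exons lower it by construction. How much of the annotated exon sequence is used was not measured.

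The libraries held about 16700000 to 26200000 assigned reads, as implied by what 1 read is worth in the table. Normalized counts summed to between 17152972 and 17709731 without LPS and between 22071853 and 26384551 with LPS, so a gene of constant normalized count is a smaller share of the total after LPS. Macrophage markers summed to between 226714 and 318793, those of T cells, neutrophils and eosinophils to at most 29 in any library, those of B cells to between 39 and 86 and of mast cells to between 31 and 109; 7 of 8 macrophage symbols were in the table. Markers of large peritoneal (resident) macrophages summed to between 277 and 742, with Gata6 at 90 to 424, and Timd4 at 1 to 16 without LPS and 97 to 230 with it. Mesothelial cell and fibroblast markers summed to between 4495 and 27840 and were highest in replicate 1 and lowest in replicate 3 of every group. Within replicate 1 they also differed between groups, at 23041 in control, 18752 in oxLDL, 27840 in LPS and 15800 in oxLDL+LPS. In replicate 2 they ran from 13497 to 16220, and in replicate 3 from 4495 to 5354. Differences within a replicate number are given where they bear on a result, but they do not remove this imbalance between groups. The part of these markers in the results was not tested. In bulk RNA, fewer cells of a type and less RNA per cell cannot be told apart.

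On the deposited scale members were called in both directions after LPS, as were genes in general. Comparing LPS with control asked what the stimulus alone did: 26 of the 76 genes were called higher and 10 lower at an adjusted p under 0.1 (limma over 13482 genes), and 40 were not called. Called genes were 47.4% of the members against a background of 60.9% of all genes tested, of which 31% were higher and 30% lower. No test was made between the 2 shares. The median log2 difference was 0.12 (0.12, 0.17 and 0.15 within replicates 1, 2 and 3), against -0.0047 for all genes tested. The direction of that median rested on scaling: with every library set to the same total, all genes shifted by -0.48, the member median was -0.36, and 7 members were called higher and 43 lower, against 16.8% and 54.4% of all genes. Of the 26 members called higher as deposited, 9 had a negative difference with equal totals, though none of the 26 was then called lower. Relative to all genes the member median was 0.13 as deposited, 0.12 with equal totals and 0.23 with quantile normalization.

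**Figure D1:**
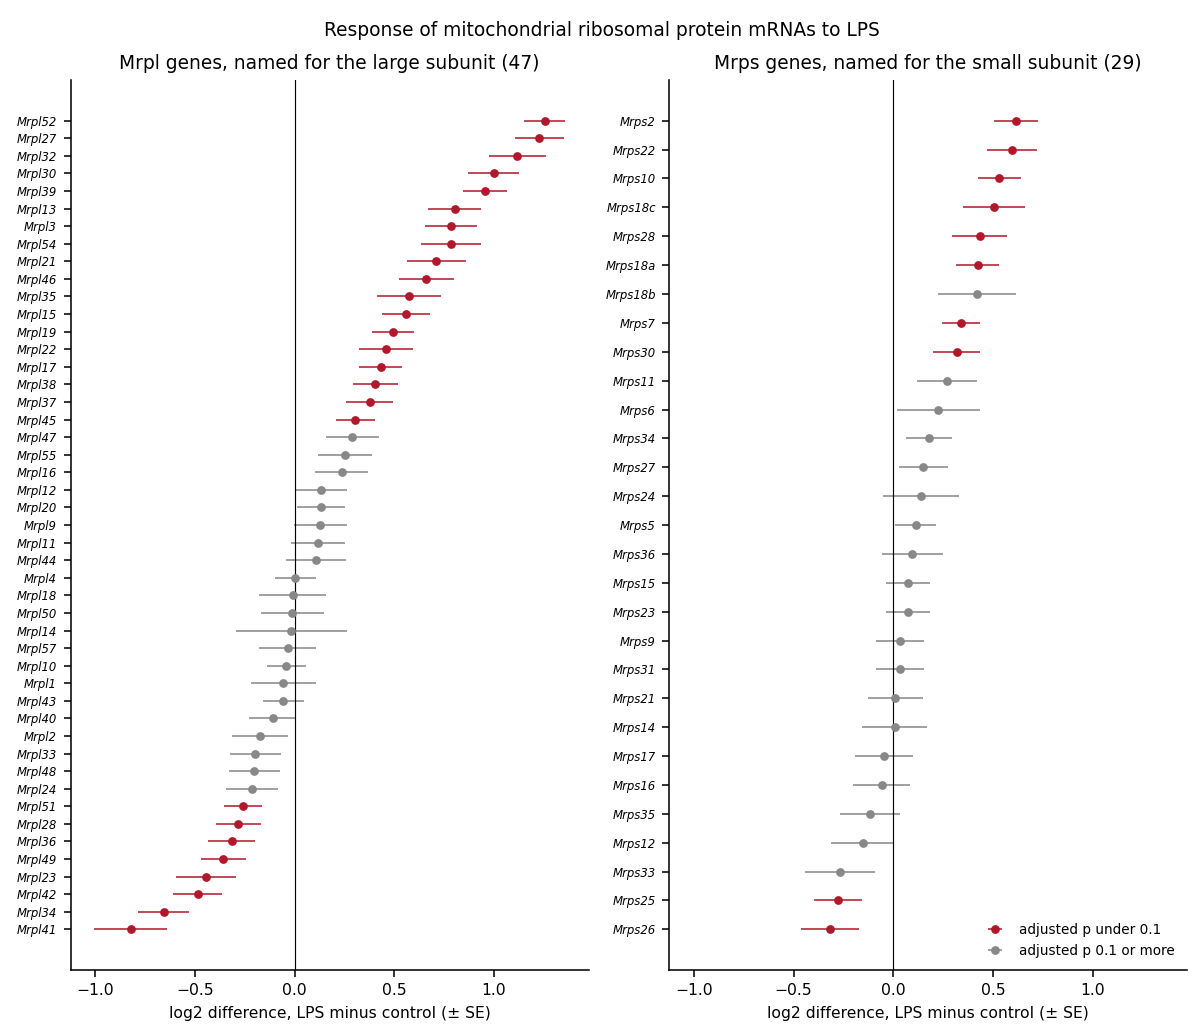
Each point is 1 gene's log2 difference in normalized count between 3 LPS and 3 control libraries, with its standard error; Mrpl genes are on the left, Mrps genes on the right, and red marks an adjusted p under 0.1. The Mrpl genes spanned -0.82 (Mrpl41) to 1.25 (Mrpl52), and the Mrps genes spanned -0.32 (Mrps26) to 0.62 (Mrps2).

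The 8 members with the largest rises were all Mrpl genes. Mrpl52, a mitochondrial addition to the large subunit, had 298, 321 and 334 normalized counts in control PMφs and 739, 726 and 814 after LPS. This was 2.39-fold, a log2 difference of 1.25 ± 0.10 (SE; adjusted p = 3.41e-05). Mrpl27, whose bacterial counterpart reaches into the peptidyl transferase centre, had 285, 232 and 267 in control and 611, 565 and 663 after LPS, a log2 difference of 1.23 ± 0.12 (adjusted p = 9.89e-05). By the rule that named these genes, LPS and control libraries could not overlap, so their separation adds no support. Groups did not overlap in 30 members upward and 10 downward, against 4258 and 4139 of 13482 genes tested.

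Mrpl32, whose protein is cleaved by the inner-membrane m-AAA protease before it joins the ribosome, rose from 167, 135 and 176 to 318, 362 and 356, a log2 difference of 1.12 ± 0.14 (adjusted p = 0.000392). Mrpl30 rose from 574, 523 and 639 to 1041, 1103 and 1335 (1.00 ± 0.13, adjusted p = 0.000374). Mrpl39, a mitochondrial addition that resembles a threonyl-tRNA synthetase in part, rose from 338, 381 and 350 to 768, 653 and 656 (0.95 ± 0.11, adjusted p = 0.000226). None of these groups overlapped, as the naming rule required. Mrpl13 (0.80), Mrpl3 (0.78) and Mrpl54 (0.78) completed the 8, with adjusted p between 0.00146 and 0.00332. All 8 kept a positive difference with equal totals, from 0.30 for Mrpl3 and Mrpl54 to 0.77 for Mrpl52, and of the 8 only Mrpl54 was then not called (adjusted p = 0.113).

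On the deposited scale fewer members were called lower than higher. Mrpl41, another mitochondrial addition to the large subunit, had 194, 229 and 230 normalized counts in control and 121, 100 and 151 after LPS, a log2 difference of -0.82 ± 0.18 (adjusted p = 0.00638). Mrpl34, a very small protein with a bacterial counterpart, had 347, 276 and 308 in control and 199, 196 and 192 after LPS (-0.66 ± 0.13, adjusted p = 0.00334). Mrpl42 had 366, 330 and 415 in control and 266, 252 and 271 after LPS (-0.49 ± 0.12, adjusted p = 0.0115). In these 3 genes the LPS libraries all lay under the control libraries, as the naming rule required. With equal totals the differences of these 3 genes were larger, -1.30 for Mrpl41, -1.14 for Mrpl34 and -0.97 for Mrpl42. Mrpl23 (-0.44), Mrpl49 (-0.36), Mrps26 (-0.32), Mrpl36 (-0.32) and Mrpl28 (-0.28) also passed, with adjusted p from 0.0286 for Mrpl49 to 0.0992 for Mrps26. These 5 calls were fragile: Mrpl23 was not called without control replicate 1 (adjusted p = 0.114), nor Mrpl49 without control replicate 3 (adjusted p = 0.109). Mrpl36 was not called without control replicate 1 or 3 or LPS replicate 2 (adjusted p 0.117 to 0.164), and Mrpl28 without those or LPS replicate 1 (adjusted p 0.103 to 0.172). Mrps26 stayed called only when LPS replicate 1 was the library left out, and otherwise had adjusted p of 0.103 to 0.244.

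A ratio of 2 members in the same library does not depend on scaling. The ratio of Mrpl52 to Mrpl41 was 1.46 ± 0.0679 (SD, n = 3) in control, 1.49 ± 0.145 in oxLDL, 6.25 ± 0.943 in LPS and 4.71 ± 0.365 in oxLDL+LPS cells. The lowest ratio with LPS, 4.488, was above the highest without it, 1.575. The 2 genes were picked from the ends of the response, so the ratio is a description.

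**Figure D2:**
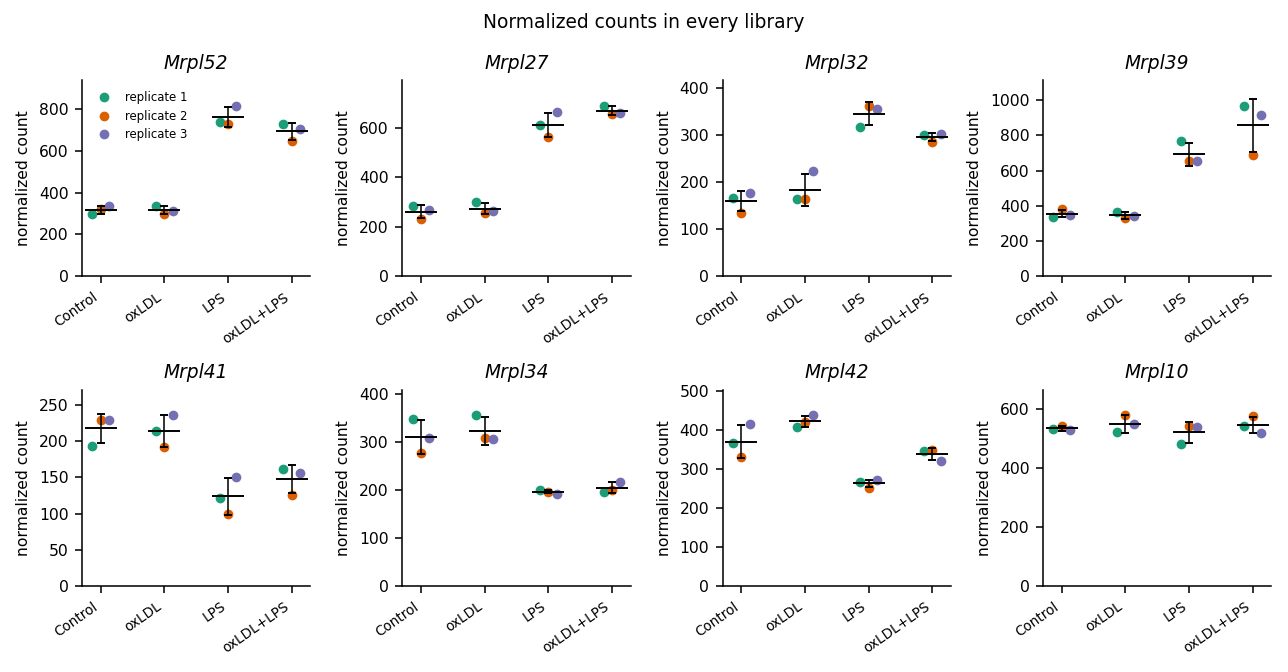
Normalized counts of 8 members in all 12 libraries, coloured by replicate number, with the group mean (bar) and SD; each axis starts at 0. The upper 4 genes were higher in both LPS groups, Mrpl41, Mrpl34 and Mrpl42 were lower, and Mrpl10 stayed between 481 and 579 in every library.

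By subunit name, 18 of 47 Mrpl genes were called higher and 8 lower after LPS, and 8 of 29 Mrps genes were called higher and 2 lower, beside 31% and 30% of all genes tested. Medians were 0.13 and 0.11. The summed Mrpl to Mrps ratio within a library was 1.99 to 2.05 in control, 1.99 to 2.02 in oxLDL, 2.13 to 2.14 in LPS and 2.06 to 2.12 in oxLDL+LPS libraries, so the LPS and control libraries did not overlap. By place in the ribosome, 11 of 30 large-subunit genes with a bacterial counterpart were called higher and 4 lower, against 9 and 4 of 19 without one. Of the small-subunit genes with a bacterial counterpart, 5 of 16 were called higher and 0 lower, and of those without one, 1 of 10 was called higher and 2 lower, beside the same 31% and 30%.

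Among small-subunit genes the largest rise was in Mrps2, from 374, 416 and 393 to 545, 626 and 647 (0.62 ± 0.11, adjusted p = 0.00206). It was followed by Mrps22 (0.59, adjusted p = 0.00485) and Mrps10 (0.53, adjusted p = 0.00383). These 3 genes were named after their values were seen, and with equal totals their differences were 0.13, 0.11 and 0.05, none of them called. The stalk proteins, which recruit translation factors to the large subunit, were not called: Mrpl10 differed by -0.04 ± 0.10 (adjusted p = 0.748) and Mrpl12 by 0.13 ± 0.13 (adjusted p = 0.416). With equal totals both were called lower, at -0.52 and -0.35 (adjusted p = 0.00153 and 0.0463).

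Some symbols do not match the place of the protein. Mrps18a and Mrps30 encode large-subunit proteins despite their names, and both were called higher (0.42, adjusted p = 0.0117, and 0.32, adjusted p = 0.0505), but with equal totals their differences were -0.06 and -0.16. Mrps18b and Mrps18c, the paralogs of Mrps18a that sit in the small subunit, differed by 0.42 (adjusted p = 0.107) and 0.51 (adjusted p = 0.0251). With equal totals these were -0.06 and 0.02. With the replicate number as a block Mrps18b was called too (adjusted p = 0.0698). Its LPS replicates read 195, 316 and 290 against 197, 179 and 211 in control, so replicate 1 did not share the rise. Mrps36, now known as a component of the 2-oxoglutarate dehydrogenase complex rather than of the ribosome, had a difference of 0.10 (adjusted p = 0.626), which was -0.39 with equal totals (adjusted p = 0.0346).

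In cells loaded with oxLDL the LPS comparison asked whether the same genes moved. Of the 76, 28 were called higher and 4 lower in oxLDL+LPS against oxLDL cells, 42.1% against a background of 53.3% (27.6% higher and 25.8% lower). The median was 0.18 (all genes, -0.02); with equal totals it was -0.21 beside -0.40 for all genes, and 7 members were called higher and 31 lower, against 15.8% and 50.1% of all genes. The 2 LPS comparisons share no library, although their libraries came from the same pools of cells. They shared 28 called members, which is 77.8% of the 36 called without oxLDL and 87.5% of the 32 called with it, and all 28 moved the same way, 24 up and 4 down. Across the 76 genes the LPS differences without and with oxLDL had a Pearson correlation of 0.949 and a Spearman correlation of 0.941, and the Pearson correlation over all genes tested was 0.971.

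Of the 8 largest rises, 7 were in genes also among the 8 largest without oxLDL, Mrps22 taking the place of Mrpl54. Mrpl39 rose most in oxLDL-loaded cells, from 367, 329 and 341 to 968, 687 and 917 (1.29 ± 0.14, adjusted p = 0.000294). Mrpl27 rose from 299, 258 and 263 to 689, 655 and 662 (1.29 ± 0.10, adjusted p = 5.23e-05), and Mrpl52 from 337, 300 and 311 to 727, 647 and 705 (1.13 ± 0.10, adjusted p = 9.24e-05). Mrpl30 (0.95), Mrpl3 (0.78), Mrpl13 (0.75), Mrps22 (0.75) and Mrpl32 (0.70) followed, with adjusted p of 0.00014 to 0.00755. With equal totals Mrps22 (0.36, adjusted p = 0.107) and Mrpl32 (0.31, adjusted p = 0.122) were not called. The genes that fell were Mrpl34 (-0.66), Mrpl41 (-0.53), Mrpl42 (-0.32) and Mrpl36 (-0.30), with adjusted p of 0.00339, 0.0262, 0.0292 and 0.0511. Mrpl36 was not called without oxLDL replicate 1 or 3 or oxLDL+LPS replicate 3 (adjusted p 0.135 to 0.151), nor Mrpl42 without oxLDL replicate 3 (adjusted p = 0.101).

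**Figure D3:**
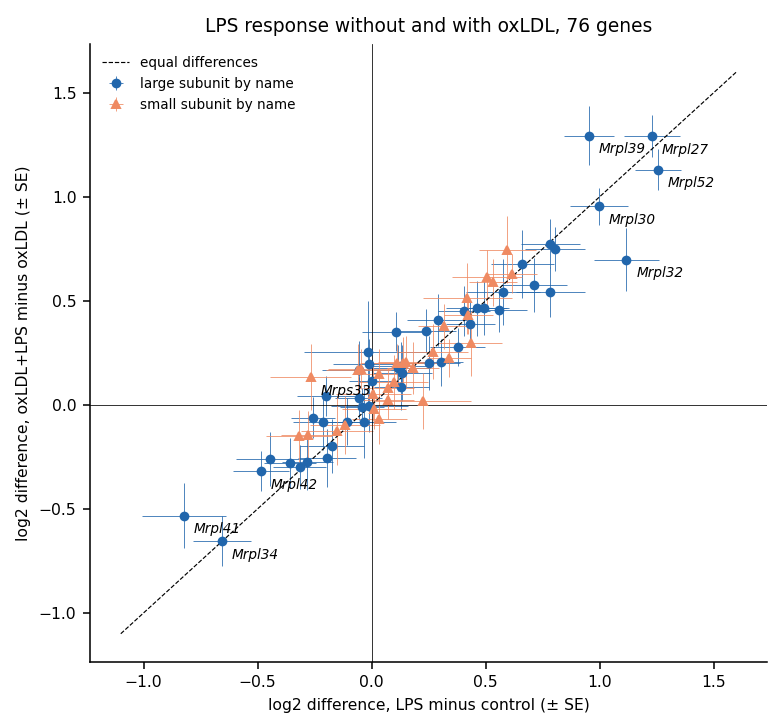
The LPS log2 difference of each of 76 genes without oxLDL (horizontal) and with oxLDL (vertical), with standard errors; circles are Mrpl and triangles Mrps genes, and the dashed line marks equal differences. Points follow the line (Pearson 0.949), with Mrpl39 above it and Mrpl32 below it.

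Whether oxLDL altered the LPS response was tested directly as the interaction of the 2 treatments over all 12 libraries. No member was called, and none had an unadjusted p under 0.05; over all genes tested limma also called 0, and 418 (3.1%) had an unadjusted p under 0.05. The replicate block called 0 as well. The smallest unadjusted p among the members was that of Mrpl32, 0.062, whose LPS difference was lower with oxLDL by a log2 value of -0.42 ± 0.20 (adjusted p = 1). Its LPS values were 318, 362 and 356 and its oxLDL+LPS values 300, 286 and 302, which did not overlap. Mrpl39 had an interaction of 0.34 ± 0.18 (unadjusted p = 0.0861), followed by Mrps33 (0.40), Mrpl48 (0.24), Mrpl51 (0.20) and Mrpl44 (0.24). Standard errors near 0.2 leave room for interactions of that size in single genes.

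oxLDL alone called none of the 76 genes, and the background was 0% as well: limma called 0 of 13482 genes, 426 of them (3.16%) had an unadjusted p under 0.05, and no member did. With the replicate number as a block 32 genes were called, 7 higher and 25 lower, and 601 (4.71%) when the filter used the libraries compared; no member was among either. The members nevertheless leaned one way. By the mean, 64 of 76 were higher in oxLDL than in control, against 48.3% of all genes tested, with a median log2 difference of 0.07 (0.09, 0.09 and 0.04 within replicates 1, 2 and 3). Members higher in all 3 replicate numbers were 26 (34.2%), against 17% of all genes, and 2 were lower in all 3 (2.63% against 18.8%). The lean was not particular to the members. Higher with oxLDL were 11 of 15 mitochondrial translation factors, 15 of 22 mitoribosome assembly factors and 14 of 17 mitochondrial tRNA synthetases. So were 6 of 6 ribosomal subunits with other names and 8 of 11 genes of mitochondrial transcription and genome maintenance. Medians of these lists were 0.04 to 0.08. The members are not independent of each other, and no test was made of their lean. The smallest unadjusted p belonged to Mrpl42, which had 366, 330 and 415 normalized counts in control and 409, 421 and 438 in oxLDL cells (0.20 ± 0.10, unadjusted p = 0.0951, adjusted p = 1). Mrpl57 (0.27 ± 0.14, unadjusted p = 0.0954) and Mrps23 (0.14 ± 0.07, unadjusted p = 0.0973) came next, both with an adjusted p = 1. Groups did not overlap in 5 members, all higher in oxLDL; over all genes tested 3.71% were separated upward and 3.85% downward.

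A lean toward higher values was also present when oxLDL+LPS was compared with LPS. The 2 oxLDL comparisons share no library, although their libraries came from the same pools of cells. The median of oxLDL+LPS against LPS was larger in replicate 1 and smaller in replicates 2 and 3 than that of oxLDL against control. Limma called 0 members and 0% of all genes, of which 901 (6.68%) had an unadjusted p under 0.05. By the mean 67 of 76 members were higher with oxLDL, against 48.1% of all genes, with a median of 0.10 (0.19, 0.08 and 0.03 within replicates 1, 2 and 3). With equal totals the median was 0.19 and that of all genes 0.08. Members higher in all 3 replicate numbers were 35 (46.1% against 20.5%), and 4 were lower in all 3 (5.26% against 23.6%). Groups did not overlap in 13 members, 12 higher and 1 lower, against 6% and 6.19% of all genes. In replicate 3, 43 members were higher, fewer than the 68 and 64 in replicates 1 and 2. The related lists leaned the same way here too. By the mean 14 of 15 translation factors, 21 of 22 assembly factors and 13 of 17 tRNA synthetases were higher with oxLDL. So were 6 of 6 subunits with other names and 7 of 11 genes of mitochondrial transcription and genome maintenance. Medians of these lists were 0.12 to 0.17.

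Mrpl42 again had the smallest p, with 266, 252 and 271 normalized counts in LPS and 347, 348 and 321 in oxLDL+LPS cells (0.36 ± 0.11, unadjusted p = 0.0126, adjusted p = 0.725). Mrps17 had 412, 409 and 497 in LPS and 521, 543 and 559 in oxLDL+LPS cells (0.31 ± 0.12, adjusted p = 0.731). Mrpl51 had 441, 491 and 441 in LPS and 592, 544 and 510 in oxLDL+LPS cells (0.26 ± 0.11, adjusted p = 0.733). In each of the 3 genes the groups did not overlap. With the replicate number as a block, Mrpl42 (adjusted p = 0.0751) and Mrps17 (adjusted p = 0.0862) were called, 2 of 76 members against 10.1% of all genes.

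**Figure D4:**
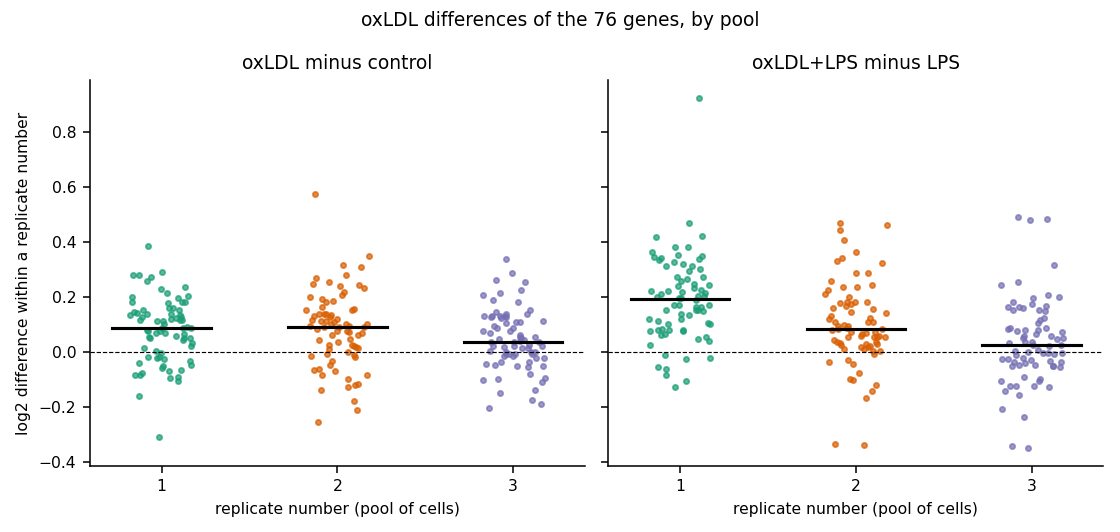
Each point is 1 of 76 genes: its log2 difference between oxLDL and control (left) or oxLDL+LPS and LPS (right) within 1 replicate number, with the median as a bar. The medians lay above 0 in all 6 columns, between 0.03 and 0.19.

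The rest of the mitochondrial translation machinery was followed in 5 lists. After LPS, where 31% of all genes were called higher and 30% lower, the 6 other ribosomal subunits whose names do not begin with Mrp gave 1 called higher, Ptcd3 (0.27, adjusted p = 0.075), and 0 lower; the replicate block also called Chchd1 (0.52, adjusted p = 0.0209 with the block and 0.148 without). Among 15 translation factors 2 were higher and 6 lower (3 and 8 with the block): Slirp, which stabilizes mitochondrial mRNAs with Lrpprc, rose from a mean of 186 to 458 (1.31, adjusted p = 0.000577), and the elongation factor Gfm1 rose by 0.49 (adjusted p = 0.00676). Lrpprc itself was called lower, from a mean of 1150 to 963 (-0.26, adjusted p = 0.0747), with no overlap of the groups. Guf1, the mitochondrial counterpart of bacterial LepA, fell from 408 to 214 (-0.92, adjusted p = 0.00101), Oxa1l, the inner-membrane insertase that receives new chains, by 0.42 (log2 difference -0.42, adjusted p = 0.0228), and Taco1 (-0.38) and Gfm2 (-0.30) also passed.

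The mitochondrial aminoacyl-tRNA synthetases, which charge the tRNAs used by this ribosome, were called lower in 9 of 17 cases and higher in 1, Ears2 (0.52, adjusted p = 0.0515), beside 30% and 31% of all genes. Nars2 fell from a mean of 108 to 34 (-1.64, adjusted p = 0.000349), Vars2 from 208 to 66.7 (-1.63, adjusted p = 0.000204) and Mars2 from 124 to 54 (-1.19, adjusted p = 0.000711). The median of the 17 was -0.38. In oxLDL-loaded cells 7 were lower and 0 higher, beside 25.8% and 27.6% of all genes. All of these directions are on the deposited scale. With equal totals Slirp stayed called (0.83, adjusted p = 0.00481), whereas Gfm1 (0.0021), Ears2 (0.04) and Ptcd3 (-0.21) were not.

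Of 22 assembly factors 3 were called higher and 5 lower, beside 31% and 30% of all genes. Eral1 (0.42), Mterf3 (0.33) and Ddx28 (0.31) were higher, although with equal totals they were at -0.06, -0.15 and -0.17, and Mrm1 (-1.05), Mtg1 (-1.03), Rbfa (-1.02) and Ngrn (-0.77), factors for ribosomal RNA modification or subunit maturation, were lower. In the 11 genes of mitochondrial transcription and genome maintenance 3 were higher and 3 lower, beside the same shares. Tefm, the transcription elongation factor, rose by 1.11 (adjusted p = 0.00119), Tfam, which packages mitochondrial DNA, by 0.69 (adjusted p = 0.00105) and Polg2 by 0.56 (adjusted p = 0.0425); with equal totals these were 0.64 (adjusted p = 0.00972), 0.21 and 0.08, and the last 2 were not called. Peo1, the helicase of mitochondrial DNA, had a difference of -1.20, Tfb2m of -0.62 and Polrmt, the RNA polymerase, of -0.29. In oxLDL against control none of the genes in these lists was called, with or without the block.

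**Figure D5:**
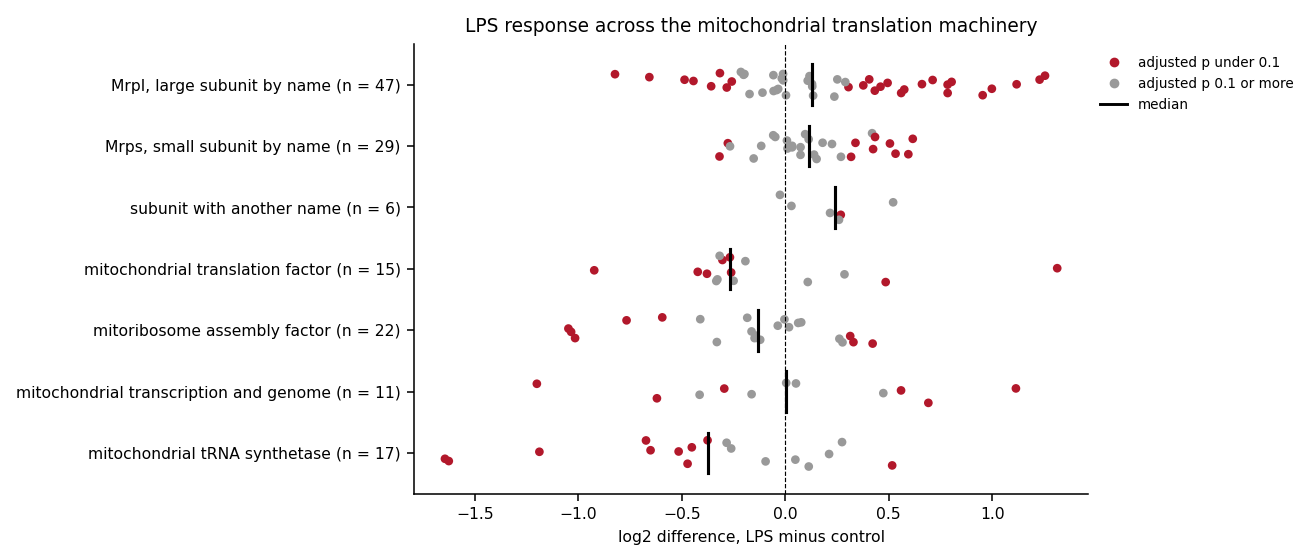
LPS log2 differences of the Mrpl and Mrps genes and of 5 lists of other genes of mitochondrial translation; each point is 1 gene, red marks an adjusted p under 0.1, and the bar is the median of the list. Medians were 0.13 and 0.11 for the Mrpl and Mrps genes and -0.38 for the tRNA synthetases.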

How the data were processed

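Polyadenylated RNA of 12 libraries was sequenced in 150-base pairs. Per the submitters' processing notes, Trimmomatic 0.32, STAR 2.5.1b and featureCounts were used on GRCm38; the strand setting of the counting is not given in the sources used here. The deposited table holds whole-number scores: counts that the authors scaled by 1 factor per library and rounded (normalized counts). Because these are not raw counts, limma 3.58.1 in R 4.3.3 (lmFit, eBayes with trend, two-sided) was applied to log2(value + 1) in place of the count test of the study, over the 13482 symbols at 10 or more in at least 3 libraries, with Benjamini-Hochberg adjustment and calls at an adjusted p under 0.1. Each comparison used the 6 libraries of its 2 groups, and the interaction all 12. Fold changes understate changes of low genes. Replicate numbers pair the libraries: each pool was divided among the groups, and same-numbered libraries deviated together (correlations 0.266 to 0.657), so a fit with the number as a block was an alternative. P-values of the main fit set group differences against the spread between pools within a group, although the pools were shared. Those of the block fit use the spread of differences within pools.

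The text names up to 8 called members per direction by size among those whose groups did not overlap, the smallest p-values where few were called, the extremes of level per kilobase, members whose name and place differ, the stalk proteins, and called genes of the 5 lists, of which 1 is not reported here. The members and lists were chosen with earlier results of these data known. Alternatives were the pseudocount, filter, scaling, threshold, block and leaving out libraries. The code of the fit was also run on simulated data. Those data held no effect shared by the libraries of a pool, and few changed genes. That run therefore does not show how the fit behaves under the design used here. Of 43278 symbols, 25 were dates and 18273 were at 0 in every library. Annotation was GENCODE for GRCm38, in a later release than the study names for its counting. Some of its genes, such as Gm38077 (overlapping Mrpl3) and Gm43511 (overlapping Mrps18c), are absent from the deposited table. By this annotation 31 of the 76 members share exon bases with another gene (26 on the other strand), so their counts are less certain. Named members among them are Mrpl3, Mrpl51 and Mrps18c on the same strand, and on the other strand Mrpl3, Mrpl10, Mrpl12, Mrpl13, Mrpl27, Mrpl36, Mrpl43, Mrpl44, Mrpl47, Mrpl48, Mrpl49, Mrps18b, Mrps26 and Mrps30.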

Additional observations from a re-analysis of the deposited data

How the results depend on the processing

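With equal totals the member median reversed to -0.3591 for LPS against control and -0.2076 for oxLDL+LPS against oxLDL, and became 0.1931 for oxLDL+LPS against LPS and 0.1161 for the interaction; this scaling lowers every LPS difference by construction, since LPS libraries have higher totals. Quantile normalization gave 0.0935 and 0.1422 for the 2 LPS comparisons, beside -0.1371 and -0.1311 for all genes. Median centring gave 0.1503 for the second, beside -0.0496 for all genes. The cause of these shifts was not tested. Leaving out 1 library moved the median between 0.0802 and 0.1771 for LPS against control, 0.1403 and 0.2199 for oxLDL+LPS against oxLDL, 0.0312 (without control replicate 2) and 0.1011 for oxLDL against control, and -0.0055 (without oxLDL+LPS replicate 1) and 0.0798 for the interaction, which was -0.0026 without control replicate 3. The replicate block without replicate 3 gave 0.0947 for LPS against control.

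The count of called members stayed within 1.5 times in both LPS comparisons under every alternative run, from 24 to 50 and from 23 to 43. In oxLDL+LPS against LPS the replicate block called 2 members in place of 0, 1 without replicate 2, 3 with the filter on the libraries compared and 2 with all 12 libraries in one fit, where 10.1%, 15%, 13.2% and 7.53% of all genes were called (0 of all genes without replicate 1 or 3); the last 2 alternatives were chosen after seeing the data. Beside these and Mrps18b, the block changed the calls of Mrpl16 for LPS against control and of Mrpl28, Mrpl45 and Mrpl49 for oxLDL+LPS against oxLDL, each called only with it. No member named for its size or p changed direction under any alternative; those named for another reason, such as Mrps18a, Mrps18b, Mrps30, Mrps36 and Mrpl12, turned negative for LPS against control with equal totals. Mrps26 also lost its LPS call with a pseudocount of 5 (adjusted p = 0.1), no filter (0.164), quantile normalization (0.104) and no trend (0.112). Mrps26, Mrpl36, Mrpl28, Mrpl23 and Mrpl49 lost their LPS calls without 1 control or LPS library or with the block and 1 number left out, as did Mrpl36 and Mrpl42 in oxLDL+LPS against oxLDL. With 3 pools a group, the fit without the block had standard errors near 0.1 on the log2 scale. They limit what that fit can show of oxLDL differences of that size.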

Other observations

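Positions of neighbouring genes were examined after the values were seen. Of the 76 members, 34 have another tested gene within 3 kb that shares no exon with them, and 19 of these pairs start head to head. Mrpl30 starts 66 bases from Mitd1, which rose after LPS from a mean of 130 ± 10.1 (SD, n = 3) to 1332 ± 160 normalized counts, a log2 difference of 3.34 (adjusted p = 6.42e-07). Mrpl32 starts 75 bases from Psma2, a proteasome subunit, which rose from 1104 ± 155 to 2835 ± 314 (1.36, adjusted p = 9.08e-05). Mrpl52 lies 1856 bases upstream of Mmp14, a membrane metalloprotease, on the same strand, and Mmp14 rose from 2862 ± 753 to 26439 ± 103 (3.24, adjusted p = 5.83e-06).

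Mrpl41 and Mrpl34, the members that fell most, also had a lower neighbour. Mrpl41 starts 935 bases from Pnpla7, which went from 3020 ± 637 to 700 ± 169 (-2.12, adjusted p = 8.64e-05), and Mrpl34 starts 1304 bases from Abhd8, which went from 419 ± 41.4 to 111 ± 18.7 (-1.92, adjusted p = 4.61e-05). These pairs are not particular to the members as far as counts go. Where both genes of a pair were called after LPS, 8 of 12 member pairs (66.7%) moved the same way, and 1003 of 1533 such pairs over all genes tested (65.4%). In the other member pairs the member rose and its neighbour fell: Mrpl54 with Apba3 (-0.34), Mrpl37 with Cyb5rl (-1.55), Mrpl38 with Trim65 (-1.60) and Mrps18c with Helq (-0.43). The Pearson correlation of LPS differences within pairs was 0.58 over 34 member pairs and 0.37 over 3968 pairs of all genes tested. Those 3968 pairs, and the 1533 above, have an entry for each gene with such a neighbour. A pair of mutual nearest neighbours therefore enters for each of its genes. The Spearman correlations were 0.422 and 0.251, and all of these are descriptions across genes of the same libraries. Across the 76 members the LPS difference had a Pearson correlation of 0.029 with transcript length and -0.015 with transcript GC content.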
